A study of Mus musculus with 55 samples.

Results

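The 10 genes described here, Esm1, Kdr, Flt1, Vegfa, Apln, Aplnr, Pecam1, Cdh5, Angpt2 and Tek, are markers of endothelial cells or belong to the VEGF, angiopoietin and apelin pathways. They were chosen by symbol, with earlier results of these data known, and matched by Ensembl identifier. They are 10 of the 57260 genes counted in either table, and all 10 passed the filter on low counts on both days. Bulk RNA-seq was done on left-ventricular infarcts of the mouse strain C57BL/6J, made by tying off a coronary artery permanently. All 6 groups carry the infarct, and no group without one was analysed. The day 7 set holds 8 libraries from each of the non-diabetic, type 1 diabetic and type 2 diabetic groups. The day 28 set holds 11 non-diabetic, 10 type 1 and 10 type 2 libraries. The library names of type 1 diabetic samples carry hi STZ and those of type 2 diabetic samples carry lo STZ HFFD, so the type of diabetes cannot be told apart from treatments that differ between these groups. Day 28 rests on the sample titles, since the design text names day 7 only. Each day was sequenced as its own project, and a difference between days cannot be told apart from one between projects. The labels give no age or sex and do not say that replicates are separate animals, so p-values here measure library-to-library spread alone, and that spread may be technical.

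At day 28, Esm1 and Aplnr were lower in both diabetic groups than in non-diabetic infarcts, and Pecam1 was higher in type 2 diabetic infarcts. Esm1 was 0.43 times its non-diabetic level in type 1 and 0.54 times in type 2 diabetic infarcts, and Aplnr was 0.59 and 0.58 times. At day 7, Apln was 1.59 times its non-diabetic level in type 1 diabetic infarcts, and it was the 1 member called there. None of these calls held when libraries of a group whose names begin with the same number were summed, a setting that leaves 4 to 6 sums per group and called 0 members in each comparison between groups. A gene was called where its Benjamini-Hochberg adjusted p over all genes tested was at or under 0.05 in edgeR's quasi-likelihood test.

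Vascular endothelial growth factor A (Vegfa) binds receptors on endothelial cells, of which Kdr carries most of the growth signal and Flt1 binds the ligand tightly and can act as a decoy. Angpt2 is made by activated endothelial cells and binds the receptor Tek (Tie2), which keeps resting vessels stable. Apelin (Apln) is made at the tips of vessel sprouts and acts on the receptor Aplnr, and Esm1 (endocan) is a secreted proteoglycan of sprouting endothelium. Pecam1 and Cdh5 (VE-cadherin) are junction proteins that mark endothelial cells, and Pecam1 is also found on platelets and leukocytes.

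The read counts carry no promoter measurement, so promoter sequences are shown only for 2 secreted factors, Apln (called at day 7) and Esm1 (called at day 28), to set their start regions side by side. Both come from RefSeq (GRCm38.p6) and run from 250 bases before to 50 bases after the annotated start, 5′ to 3′ on the gene's strand. Capitals mark GGAAG on either strand (CTTCC on the other), a narrower string than the GGAA core that ETS factors of endothelial cells read. GGAA outside GGAAG was neither marked nor counted.
Esm1, chr13:113209409-113209708, + strand: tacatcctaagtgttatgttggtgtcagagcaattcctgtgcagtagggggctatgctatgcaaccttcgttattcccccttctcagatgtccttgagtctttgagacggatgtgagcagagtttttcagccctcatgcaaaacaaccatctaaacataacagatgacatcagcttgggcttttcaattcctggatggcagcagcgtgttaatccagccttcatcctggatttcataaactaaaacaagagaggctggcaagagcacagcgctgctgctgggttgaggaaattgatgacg
Apln, chrX:48034804-48035103, - strand: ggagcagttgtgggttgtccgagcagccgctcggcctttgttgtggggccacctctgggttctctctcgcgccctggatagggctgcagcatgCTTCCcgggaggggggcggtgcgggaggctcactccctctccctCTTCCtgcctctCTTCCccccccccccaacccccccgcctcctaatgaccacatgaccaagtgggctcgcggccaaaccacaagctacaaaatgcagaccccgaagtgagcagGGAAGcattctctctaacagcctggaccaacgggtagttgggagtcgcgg
The Esm1 window held 0 GGAAG matches and 46.3% G or C, and the Apln window held 4 GGAAG matches and 64.0%. GGAAG occurs in 71.4% of the 32851 promoter windows of the same length. A TATAAA match on either strand, found in 13.6% of windows, was in neither. The table held 6 of the members, with Kdr (1 GGAAG match), Flt1 (3), Tek (0) and 2 starts of Vegfa (1 and 2) beside these.

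The tissue held endothelial RNA in every library. Each of 16 other endothelial genes was counted in all 55 libraries, with a lowest count of 260 (Icam2) at day 7 and 1050 (Cldn5) at day 28. In bulk tissue, fewer endothelial cells and less RNA per cell cannot be told apart. At day 7 the mean log2 CPM (CPM is a gene's share of the library's counts in parts per 1 M, scaled by TMM) of these 16 genes averaged 6.18 ± 0.149 for non-diabetic infarcts (SD, n = 8), 6.15 ± 0.0796 for type 1 and 6.22 ± 0.098 for type 2. The day 28 averages were 6.15 ± 0.0886 (n = 11) for non-diabetic infarcts, 6.31 ± 0.085 (n = 10) for type 1 and 6.30 ± 0.107 (n = 10) for type 2. Library totals ran from 10.8 M to 51.2 M counts at day 7 and from 48.1 M to 92.9 M at day 28.

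A few libraries stood apart. At day 7, type 1 diabetic replicate 4 had the lowest mean log2 CPM of 20 cardiomyocyte markers (5.79, group median 8.75), and the highest of B cell (6.27) and adipocyte markers (6.82) in its group. Non-diabetic replicate 5 had the lowest Esm1, Kdr, Vegfa, Apln and Aplnr of its group. At day 28, type 2 diabetic replicate 4 had a cardiomyocyte mean of 8.95 (group median 10.9) and a B cell mean of 7.48 (group median 3.10). Without it, the type 2 changes at day 28 were -0.91 for Esm1 (adjusted p = 0.0138), -0.70 for Aplnr (adjusted p = 0.0148) and 0.24 for Pecam1 (adjusted p = 0.0197). Day 7 results are given without both libraries of that day where this changes a call. The labels do not give the meaning of the number that begins each library name. Within a day, no such number is shared between groups. A difference between groups is therefore also one between sets of these numbers, and the design cannot tell them apart.

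**Figure D1:**
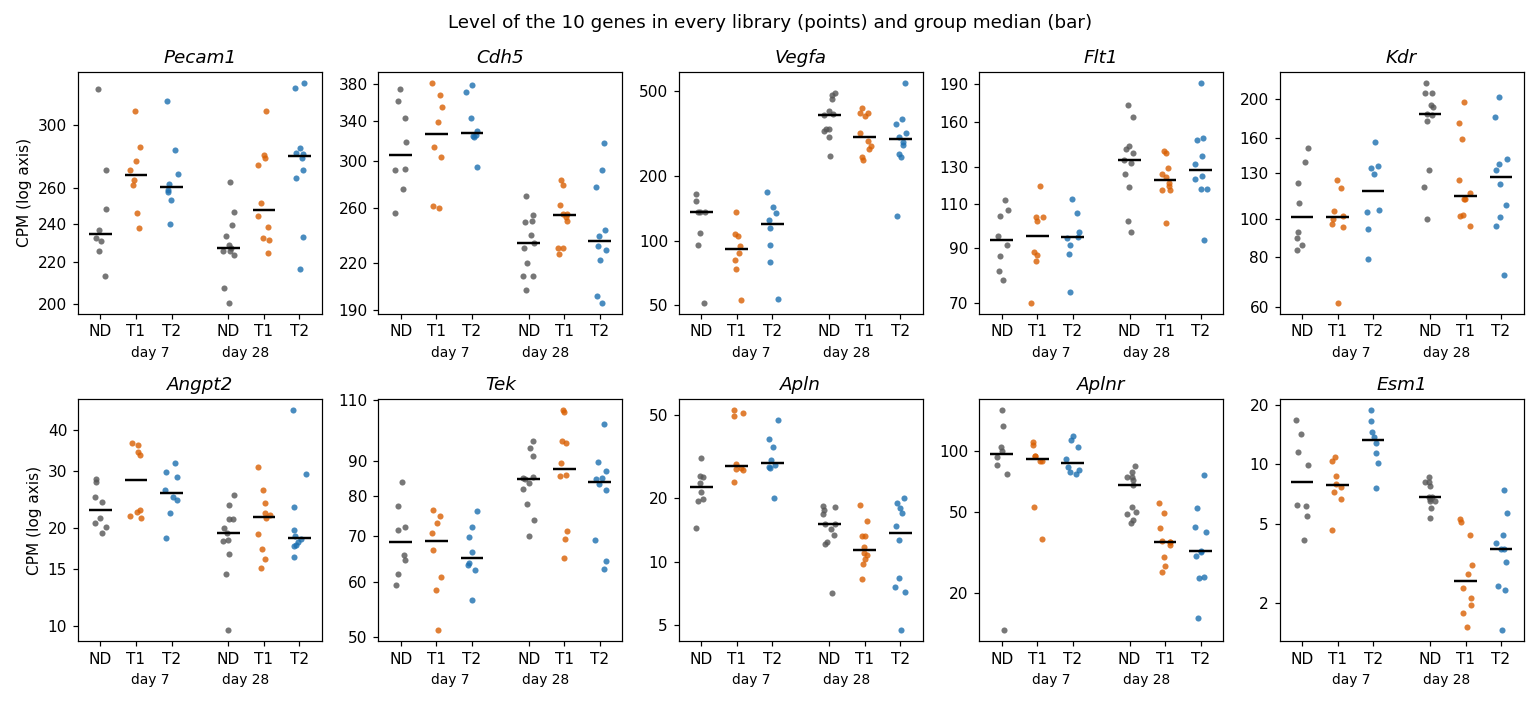
Level of each of the 10 genes in CPM (log axis, a separate range for each gene) in every library (points, spread sideways for display) with the group median (bar), for non-diabetic (ND), type 1 diabetic (T1) and type 2 diabetic (T2) infarcts at day 7 (n = 8, 8 and 8) and day 28 (n = 11, 10 and 10). At day 28 all 10 type 1 diabetic libraries lie below all 11 non-diabetic libraries for Esm1.

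Levels were compared between genes per kilobase of exon (RPKM, exon lengths from GENCODE M21). In non-diabetic infarcts at day 7, Cdh5 was highest at 74.7 ± 10.0 (SD, n = 8), followed by Pecam1 at 39.8 ± 5.71. Vegfa (28.6 ± 8.46) and Aplnr (26.0 ± 11.6) came next and lay within each other's spread. Tek (14.8 ± 1.76) and Kdr (12.1 ± 2.86) followed, and their spreads overlapped. Apln (7.18 ± 1.6), Flt1 (6.98 ± 0.929) and Angpt2 (6.32 ± 0.934) were not separated by their spread. Esm1 had the lowest mean, 4.44 ± 2.18, and its spread overlapped those of Apln, Flt1 and Angpt2. At day 28, non-diabetic Vegfa stood first at 87.9 ± 17.8 (n = 11), above Cdh5 at 55.6 ± 5.05 and Pecam1 at 36.8 ± 2.74. Kdr (19.2 ± 4.30), Tek (17.8 ± 1.69) and Aplnr (17.1 ± 4.04) overlapped there, Flt1 lay at 9.88 ± 1.69, and Angpt2 (5.14 ± 1.16), Apln (4.63 ± 1.06) and Esm1 (3.35 ± 0.478) were lowest. The cardiomyocyte marker mean in the same non-diabetic libraries was 9.36 ± 0.586 at day 7 and 11.1 ± 0.312 at day 28, and its part in the difference between days was not tested.

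Counts of called members are read against the share of all genes called in the same comparison. The members and the gene lists used below were chosen with earlier results of these data known. Such counts therefore describe the chosen genes and do not test them as a set. At day 7, 1 of 10 members was called between type 1 diabetic and non-diabetic infarcts, against 22.5% of 18165 genes (11.1% called higher, as Apln was), which is no more than the background. Between type 2 diabetic and non-diabetic infarcts 0 of 10 were called, against 7.35%, with 1 at an unadjusted p under 0.05, 0 called by DESeq2 and 1 by limma-voom. Between the diabetic groups 0 of 10 were called, against 2.71%, with 1 at an unadjusted p under 0.05, 1 called by DESeq2 and 0 by limma-voom. At day 28, 2 of 10 were called between type 1 diabetic and non-diabetic infarcts, against 4.02% of 18901 genes, both lower (1.41% of genes). Between type 2 diabetic and non-diabetic infarcts 3 of 10 were called, against 10.7%, 2 of them lower (3.5% of genes) and 1 higher (7.21%). Between the diabetic groups at day 28, edgeR called 0 of 10, against 3.21%, with 0 at an unadjusted p under 0.05 and 0 called by DESeq2 or limma-voom. Both diabetic groups of a day are set against the same non-diabetic libraries, so their changes are not independent of each other.

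**Figure D2:**
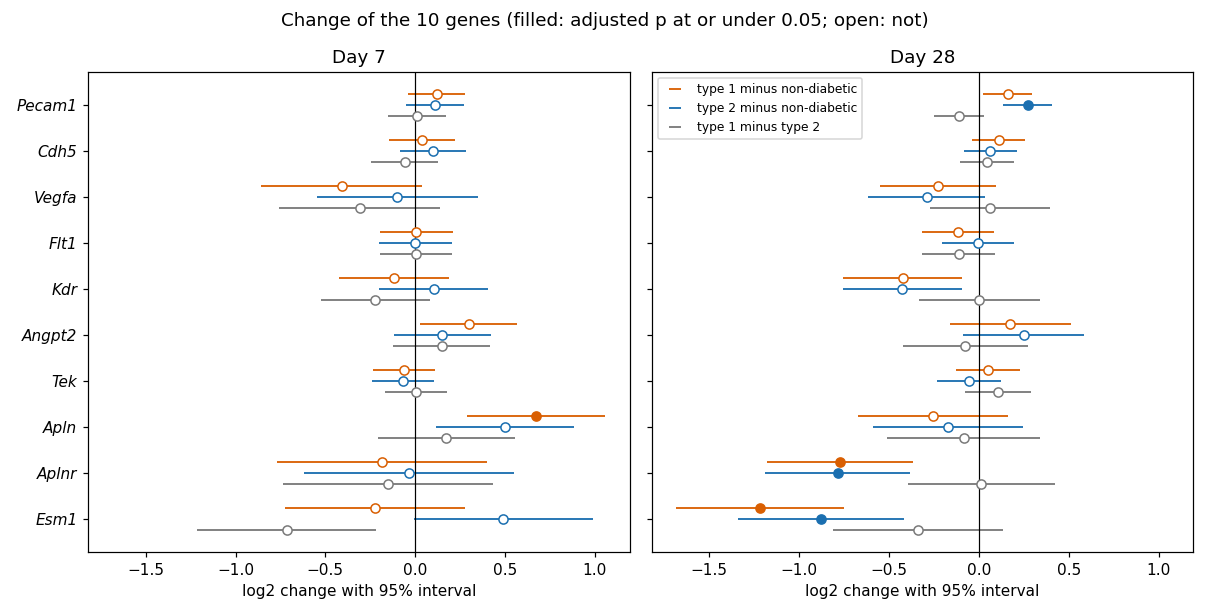
Log2 change of each of the 10 genes with its 95% interval (horizontal axis) in the 3 comparisons of day 7 (left) and day 28 (right); filled points are called in edgeR and open points are not. The filled points are Apln at day 7 (0.67, type 1 minus non-diabetic) and, at day 28, Esm1 and Aplnr in both diabetic groups and Pecam1 in type 2 diabetic infarcts.

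Pecam1 was higher and Cdh5 was close to its non-diabetic level in type 2 diabetic infarcts at day 28. Pecam1 ran from 201 to 264 CPM (median 227) in 11 non-diabetic libraries, from 225 to 309 (median 248) in 10 type 1 and from 217 to 330 (median 279) in 10 type 2 diabetic libraries. The groups overlapped, and 9 of 10 type 2 diabetic libraries lay above the non-diabetic mean. Pecam1 rose by 0.27 on the log2 scale in type 2 diabetic infarcts (SE 0.0669, adjusted p = 0.00772). In type 1 diabetic infarcts its change was 0.16 (SE 0.0669, adjusted p = 0.172), and the diabetic groups differed by -0.11 (95% interval -0.25 to 0.03, adjusted p = 0.447). With the 16 endothelial genes as a covariate the type 2 difference in Pecam1 was 0.16 (adjusted p = 0.247), and with sums over the first number of the library name it was 0.23 (adjusted p = 0.177). In the same comparison 3 of 10 macrophage markers and 8 of 8 T cell markers were called higher, against 7.21% of all genes, and their part in the Pecam1 difference was not tested.

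Cdh5 medians at day 28 were 234, 254 and 235 CPM in non-diabetic, type 1 and type 2 diabetic libraries, within 202 to 270, 226 to 284 and 195 to 318. Its changes were 0.11 (SE 0.0728, adjusted p = 0.415) and 0.06 (SE 0.0728, adjusted p = 0.622). At day 7 the medians were 306, 326 and 327 CPM, with changes of 0.04 (adjusted p = 0.788) and 0.10 (adjusted p = 0.552). Pecam1 medians at day 7 were 234, 268 and 261 CPM, with 7 of 8 libraries of each diabetic group above the non-diabetic mean and changes of 0.12 (SE 0.0779, adjusted p = 0.283) and 0.11 (SE 0.0779, adjusted p = 0.421). The highest non-diabetic Pecam1 value, 325 CPM, was in replicate 5. Without replicate 5 the type 1 change in Pecam1 was 0.19 (adjusted p = 0.0385), and without both day 7 libraries that stood apart it was 0.19 (adjusted p = 0.0450).

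**Figure D3:**
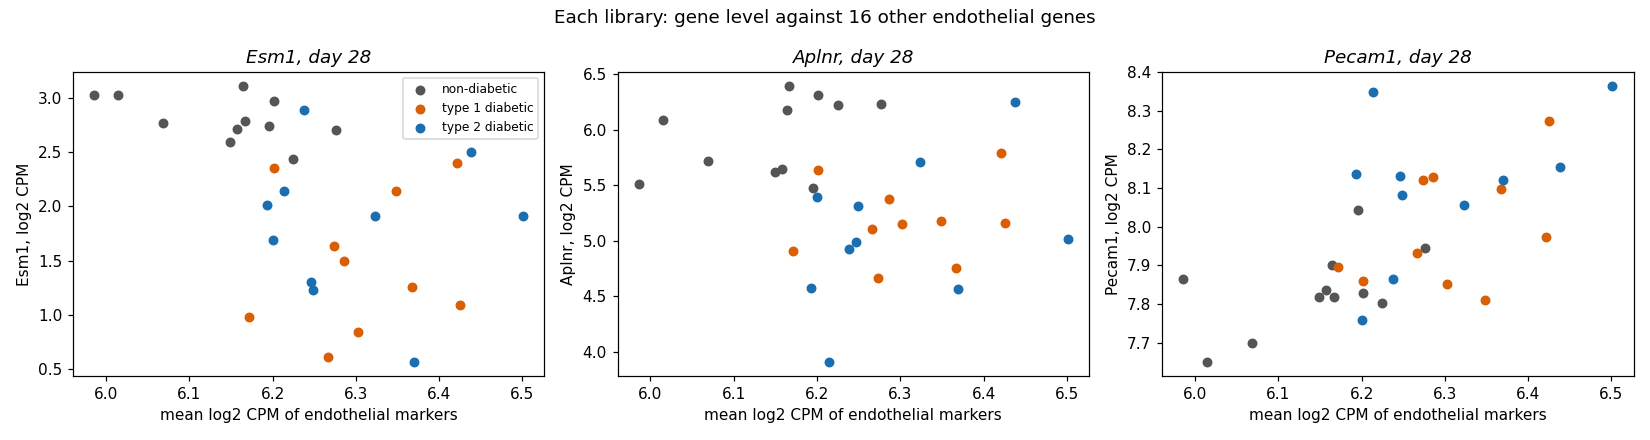
Log2 CPM of Esm1, Aplnr and Pecam1 (vertical axes) against the mean log2 CPM of 16 other endothelial genes (horizontal axis) in each of the 31 libraries of day 28, coloured by group. The endothelial mean ran from 5.99 to 6.28 in non-diabetic and from 6.17 to 6.43 in type 1 diabetic libraries, and Esm1 and Aplnr are lower in the diabetic libraries, while Pecam1 is higher in type 2 diabetic libraries.

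None of the 3 VEGF pathway members passed the test in any comparison. Vegfa had medians of 136, 91.1 and 120 CPM at day 7 in non-diabetic, type 1 and type 2 diabetic libraries, and the groups overlapped. In type 1 diabetic infarcts 7 of 8 libraries lay below the non-diabetic mean, with a change of -0.41 (SE 0.218, adjusted p = 0.180). At day 28 the Vegfa medians were 385, 305 and 296 CPM, with changes of -0.23 (SE 0.159, adjusted p = 0.448) and -0.29 (SE 0.159, adjusted p = 0.260).

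Libraries low in cardiomyocyte markers were also low in Vegfa. The lowest Vegfa value of each diabetic group at day 7, 52.9 and 53.4 CPM, was in the library with the lowest cardiomyocyte mean of that group (5.79 and 7.36). At day 28 the type 2 diabetic library with the lowest cardiomyocyte mean (8.95) had 130 CPM of Vegfa, and the one with the highest (11.3) had 545 CPM. With the cardiomyocyte mean as a covariate, the type 1 change in Vegfa at day 7 was 0.07 (adjusted p = 0.775), and the changes at day 28 were -0.08 (adjusted p = 0.577) and -0.08 (adjusted p = 0.618). Without non-diabetic replicate 5, which had 51.2 CPM, the type 1 change at day 7 was -0.53 (adjusted p = 0.0447), and without both libraries that stood apart it was -0.43 (adjusted p = 0.0797).

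**Figure D4:**
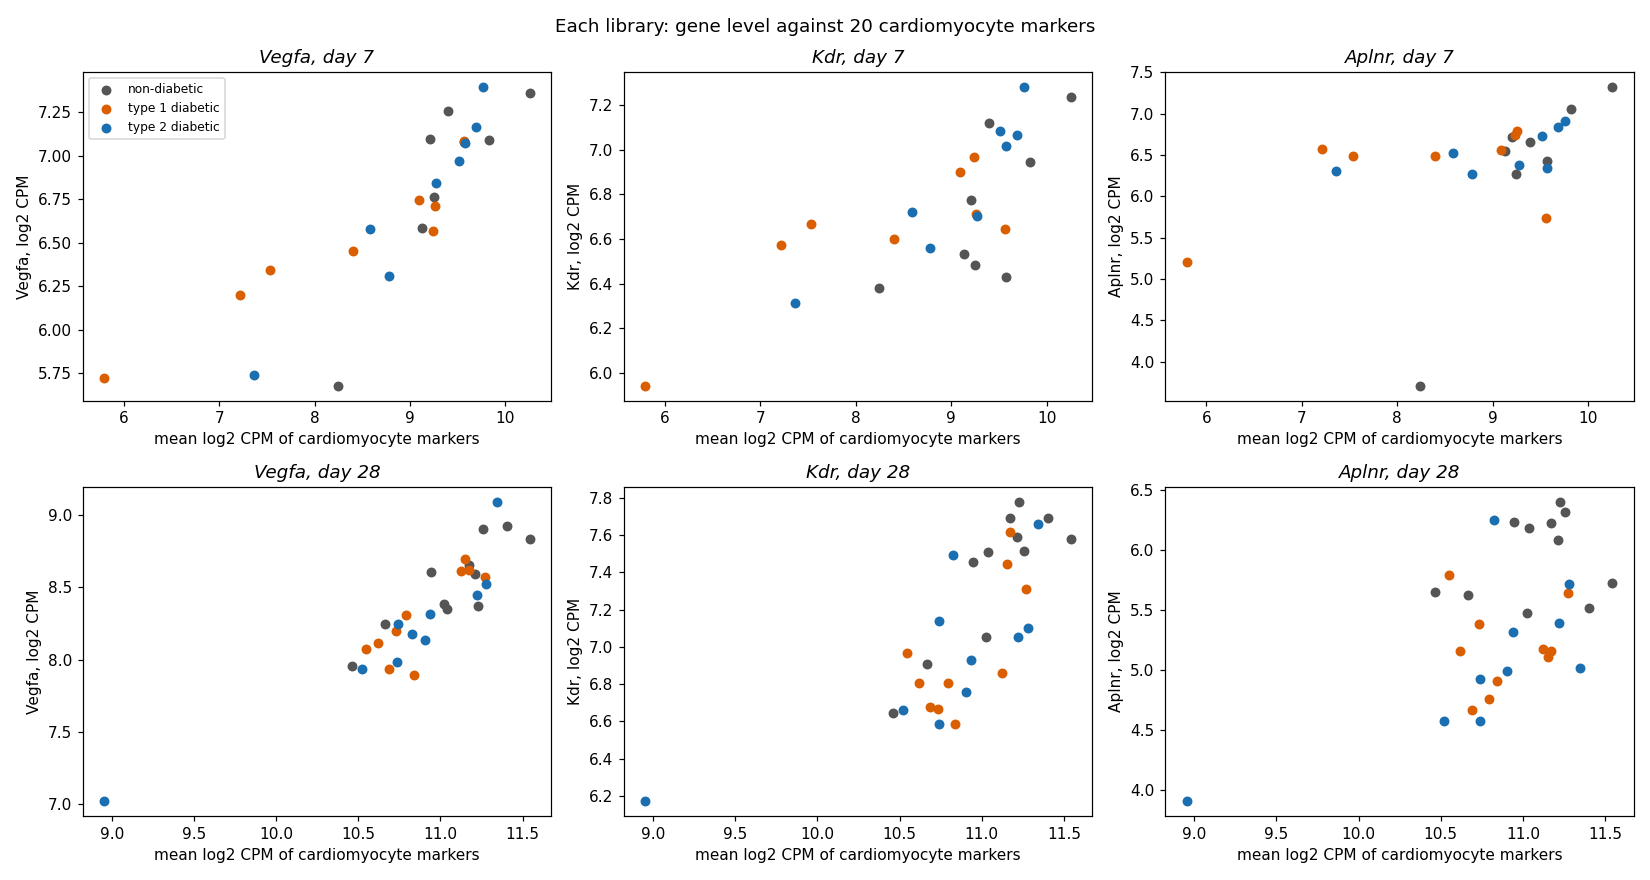
Log2 CPM of Vegfa, Kdr and Aplnr (vertical axes) against the mean log2 CPM of 20 cardiomyocyte markers (horizontal axis) in each library of day 7 (top, 24 libraries) and day 28 (bottom, 31 libraries), coloured by group. Libraries with lower cardiomyocyte markers have lower Vegfa on both days, and the leftmost libraries are type 1 diabetic replicate 4 at day 7 (5.79) and type 2 diabetic replicate 4 at day 28 (8.95).

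Kdr, the main signalling receptor of VEGF, had a day 28 median of 183 CPM in non-diabetic libraries, against 114 CPM for type 1 and 127 CPM for type 2. It ran from 99.9 to 220, from 96.0 to 197 and from 72.1 to 202 CPM, so the groups overlapped, and 8 of 10 libraries of each diabetic group lay below the non-diabetic mean. The changes were -0.42 (95% interval -0.75 to -0.09, adjusted p = 0.132) and -0.43 (-0.76 to -0.10, adjusted p = 0.0877). Limma-voom called both, at -0.55 (adjusted p = 0.0071) and -0.45 (adjusted p = 0.0326). It called 3025 and 2234 genes in all in these comparisons, against 759 and 2024 in edgeR. The type 2 change was also called without non-diabetic replicate 3 (-0.49, adjusted p = 0.0397) or type 2 replicate 5 (-0.52, adjusted p = 0.0280). With the cardiomyocyte covariate the changes were -0.30 (adjusted p = 0.102) and -0.22 (adjusted p = 0.273). At day 7 the Kdr medians were 101, 101 and 117 CPM, and the changes were -0.12 (adjusted p = 0.596) and 0.10 (adjusted p = 0.739).

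Flt1, the VEGF receptor that can act as a decoy, was nearly level across the groups. Its medians were 93.0, 94.9 and 94.3 CPM at day 7 and 135, 122 and 128 CPM at day 28. The 4 changes against non-diabetic infarcts lay between -0.12 and 0.01, with SEs from 0.0973 to 0.0982. At day 28 the 95% intervals were -0.31 to 0.08 in type 1 and -0.20 to 0.19 in type 2 diabetic infarcts.

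Other genes of the VEGF family were read from a list of 10 ligands and receptors that includes Vegfa, Flt1 and Kdr. In type 1 diabetic infarcts at day 7, 1 of the 10 rose and 2 fell, with a list median of -0.06 against -0.01 over all genes. With 22.5% of all genes called there, 3 of 10 is near the background. The coreceptor Nrp1 rose by 0.33 (SE 0.0833, adjusted p = 0.00628). The ligand Vegfb fell by 0.75 (SE 0.220, adjusted p = 0.0164) and the lymphatic growth factor Vegfd fell by 0.49 (SE 0.150, adjusted p = 0.0213). In type 2 diabetic infarcts at day 7, 1 of 10 rose, Nrp1 by 0.28 (SE 0.0833, adjusted p = 0.0381), and 0 fell. With 7.35% of all genes called there, 1 of 10 is near the background. At day 28, 1 of 10 rose and 0 fell in each diabetic group, against 2.6% (type 1) and 7.21% (type 2) of all genes called higher, namely placental growth factor (Pgf) by 0.44 in type 1 (SE 0.123, adjusted p = 0.0395, 10 of 10 libraries) and Vegfd by 0.46 in type 2 (SE 0.149, adjusted p = 0.0436, 9 of 10).

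Neither Angpt2 nor Tek passed the test in a comparison between groups. Angpt2, the ligand that loosens vessel walls, had day 7 medians of 22.7, 28.1 and 25.5 CPM. The type 1 diabetic libraries of day 7 ran from 21.5 to 36.5 CPM, with 4 of 8 above the non-diabetic mean and the other 4 below it, and the change was 0.30 (SE 0.131, adjusted p = 0.104). Limma-voom called this change, at 0.35 (adjusted p = 0.0491), in a fit that called 5901 genes in all against 4087 in edgeR. The type 2 change in Angpt2 was 0.15 (SE 0.131, adjusted p = 0.539). At day 28 the medians were 19.3, 21.7 and 18.7 CPM, with changes of 0.18 (adjusted p = 0.60) and 0.25 (adjusted p = 0.361). The highest Angpt2 value of day 28, 46.0 CPM, was in type 2 diabetic replicate 4.

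Tek medians were 68.6, 68.8 and 65.1 CPM at day 7 and 84.6, 87.5 and 83.9 CPM at day 28. All 4 changes against non-diabetic infarcts lay between -0.07 and 0.05, with SEs from 0.0834 to 0.0876 and adjusted p-values from 0.615 to 0.794. Of the 7 genes of the angiopoietin and Tie list, Angpt1, the ligand that activates Tek, fell by 0.29 in type 1 diabetic infarcts at day 7 (SE 0.0959, adjusted p = 0.0300). In type 2 diabetic infarcts at day 7, Svep1, an extracellular matrix protein, fell by 0.44 (SE 0.117, adjusted p = 0.0237). At day 28 Angpt4, the third angiopoietin, rose in both diabetic groups, by 0.77 in type 1 (SE 0.168, adjusted p = 0.00760) and by 1.02 in type 2 (SE 0.169, adjusted p = 0.000123), with 10 of 10 libraries of each above the non-diabetic mean. The type 2 change in Angpt4 differed between the days by 1.16 (SE 0.245, adjusted p = 0.0102).

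Apln was called at day 7 in type 1 diabetic infarcts, and Aplnr at day 28 in both diabetic groups. By the test of the difference between days, only the type 1 effect on Apln differed (adjusted p = 0.0273), and neither effect on Aplnr passed. At day 7 Apln ran from 14.4 to 31.3 CPM (median 22.6) in non-diabetic, from 23.9 to 52.6 (median 28.5) in type 1 and from 20.1 to 47.5 (median 29.6) in type 2 diabetic libraries. Type 1 diabetic libraries fell into 5 between 23.9 and 29.1 CPM and 3 between 49.3 and 52.6 CPM, the latter being replicates 6, 7 and 8. Those 3 libraries are the ones whose names begin with 51 or 52, and the other 5 begin with 4, 15, 16 or 39. The groups overlapped, and 8 of 8 type 1 diabetic libraries lay above the non-diabetic mean. Apln rose by 0.67 in type 1 diabetic infarcts (SE 0.187, 95% interval 0.29 to 1.06, adjusted p = 0.0118), and kept its call with each single library left out (0.58 to 0.76, highest adjusted p = 0.0315). With sums over the first number of the library name the change was 0.63 (adjusted p = 0.104). In type 2 diabetic infarcts the change was 0.50 (SE 0.187, adjusted p = 0.101, 7 of 8 libraries above), and the diabetic groups differed by 0.17 (95% interval -0.21 to 0.55, adjusted p = 0.637).

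At day 28 Apln had medians of 15.0, 11.3 and 13.7 CPM in non-diabetic, type 1 and type 2 diabetic libraries. Its changes were -0.26 (SE 0.205, adjusted p = 0.518) and -0.17 (SE 0.204, adjusted p = 0.638). The type 2 diabetic libraries were the most spread, from 4.72 to 20.1 CPM. In type 1 diabetic infarcts at day 7, where Apln rose, 6 of 7 neutrophil markers tested were called higher, against 11.1% of all genes, with means of log2 CPM from 2.55 to 5.79 against 0.23 to 3.52 in non-diabetic libraries. Of 10 fibroblast markers 7 were called lower, against 11.4% of all genes, and cardiomyocyte markers had a median change of -0.77 (2 of 20 called lower). With the cardiomyocyte covariate the Apln change was 0.62 (adjusted p = 0.0438), and the part of the other markers was not tested.

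Aplnr, the apelin receptor, was lower in both diabetic groups at day 28. It ran from 44.4 to 84.4 CPM (median 67.9) in non-diabetic, from 25.4 to 55.2 (median 35.6) in type 1 and from 15.0 to 76.0 (median 31.97) in type 2 diabetic libraries. The type 2 diabetic value of 76.0 CPM was in replicate 1 and that of 15.0 in replicate 4, and the groups overlapped. Aplnr fell by 0.77 in type 1 (SE 0.198, adjusted p = 0.0228, 10 of 10 libraries below the non-diabetic mean) and by 0.79 in type 2 diabetic infarcts (SE 0.199, adjusted p = 0.00925, 9 of 10). The diabetic groups differed by 0.01 (95% interval -0.40 to 0.42, adjusted p = 0.985). With the 16 endothelial genes as a covariate the changes were -1.06 (adjusted p = 0.0207) and -1.09 (adjusted p = 0.00548), and with the cardiomyocyte markers they were -0.66 (adjusted p = 0.0197) and -0.65 (adjusted p = 0.0192).

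The type 1 call on Aplnr was lost without type 1 replicate 5 (-0.73, adjusted p = 0.0519), without type 1 replicate 8 (-0.72, adjusted p = 0.0508) and with the replicate number as a block (-0.70, adjusted p = 0.0943). With sums over the first number of the library name both calls on Aplnr were lost, at -0.76 (adjusted p = 0.398) and -0.73 (adjusted p = 0.199). At day 7 the Aplnr medians were 97.4, 92.0 and 87.6 CPM, with changes of -0.19 (SE 0.284, adjusted p = 0.677) and -0.03 (SE 0.284, adjusted p = 0.961). Non-diabetic replicate 5 lay at 13.04 CPM, against 77.1 for the next lowest of that group.

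Esm1 had the largest changes among the 10 genes at day 28. In each of the 11 non-diabetic libraries it lay between 5.37 and 8.62 CPM (median 6.80). In type 1 diabetic libraries it ran from 1.5 to 5.26 CPM (median 2.58), and in type 2 diabetic libraries from 1.45 to 7.37 CPM (median 3.74). Type 1 diabetic and non-diabetic libraries did not overlap, which held for 0.196% of the genes tested, and the type 2 diabetic group overlapped through replicates 1 (5.64 CPM) and 3 (7.37 CPM). The counts behind these values ran from 106 to 608.

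Esm1 fell by 1.22 in type 1 diabetic infarcts (SE 0.229, 95% interval -1.68 to -0.75, adjusted p = 0.00235, 10 of 10 libraries below the non-diabetic mean). In type 2 diabetic infarcts it fell by 0.88 (SE 0.227, -1.34 to -0.41, adjusted p = 0.0111, 9 of 10). The diabetic groups differed by -0.34 (SE 0.231, -0.81 to 0.13, adjusted p = 0.508). Both calls held with each single library left out, between -1.34 and -1.14 in type 1 and between -1.03 and -0.78 in type 2. With the endothelial covariate the type 1 change was -1.20 (adjusted p = 0.0419) and the type 2 change -0.87 (adjusted p = 0.0706). With sums over the first number of the library name the changes were -1.03 (adjusted p = 0.333) and -0.92 (adjusted p = 0.175), a setting with 4, 4 and 5 sums per group in which 6 genes in all were called between type 1 diabetic and non-diabetic infarcts.

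At day 7 Esm1 ran from 4.12 to 16.8 CPM (median 8.09) in non-diabetic, from 4.65 to 10.9 (median 7.80) in type 1 and from 7.61 to 18.8 (median 13.2) in type 2 diabetic libraries. The non-diabetic libraries were the most spread, with a SD of 0.72 on the log2 scale against 0.21 in the non-diabetic libraries of day 28. The changes against non-diabetic infarcts were -0.22 (SE 0.242, adjusted p = 0.538) and 0.49 (SE 0.242, adjusted p = 0.225). Between type 1 and type 2 diabetic infarcts the difference was -0.72 (SE 0.242, -1.21 to -0.22, adjusted p = 0.104), with 8 of 8 type 1 libraries below the type 2 mean and 0 members called. DESeq2 called it (-0.71, adjusted p = 0.0440), as did edgeR on only these 2 groups (-0.71, adjusted p = 0.0284) and with the endothelial covariate (-0.86, adjusted p = 0.0317). In this order, these settings called 1058, 983 and 1203 genes in all, against 492 in the main fit.

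The effect of diabetes was compared between the days in a fit of all 55 libraries and 20421 genes. Sums over the first number of the library name were not run for these differences. For type 1 diabetes 2 of 10 members were called, against 12.5% of genes, both lower (5.5% of genes). For type 2 diabetes 1 of 10 was called, against 1.51%, also lower (0.426%). The type 1 effect on Esm1 was lower at day 28 than at day 7 by 1.01 (log2 difference -1.01, SE 0.344, adjusted p = 0.0437), and the type 2 effect by 1.40 (-1.40, SE 0.344, adjusted p = 0.0248). For Apln the type 1 effect differed by -0.94 (SE 0.297, adjusted p = 0.0273) and the type 2 effect by -0.70 (SE 0.296, adjusted p = 0.219). The type 1 difference in Esm1 was lost in 21 of 37 fits that left out 1 library (highest adjusted p = 0.0779) and without the low-count filter (-1.02, adjusted p = 0.0590). The type 1 difference in Apln was lost without type 1 replicate 6, 7 or 8 of day 7 (-0.86, -0.84 and -0.85), the 3 libraries above 49 CPM, and the type 2 difference in Esm1 without non-diabetic replicate 4 (-1.34, adjusted p = 0.0516) or type 2 replicate 3 (-1.31, adjusted p = 0.0558) of day 7. For Aplnr the differences were -0.60 (SE 0.350, adjusted p = 0.280) and -0.78 (SE 0.351, adjusted p = 0.248), and the other 7 members lay between -0.56 and 0.17 with none called.

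**Figure D5:**
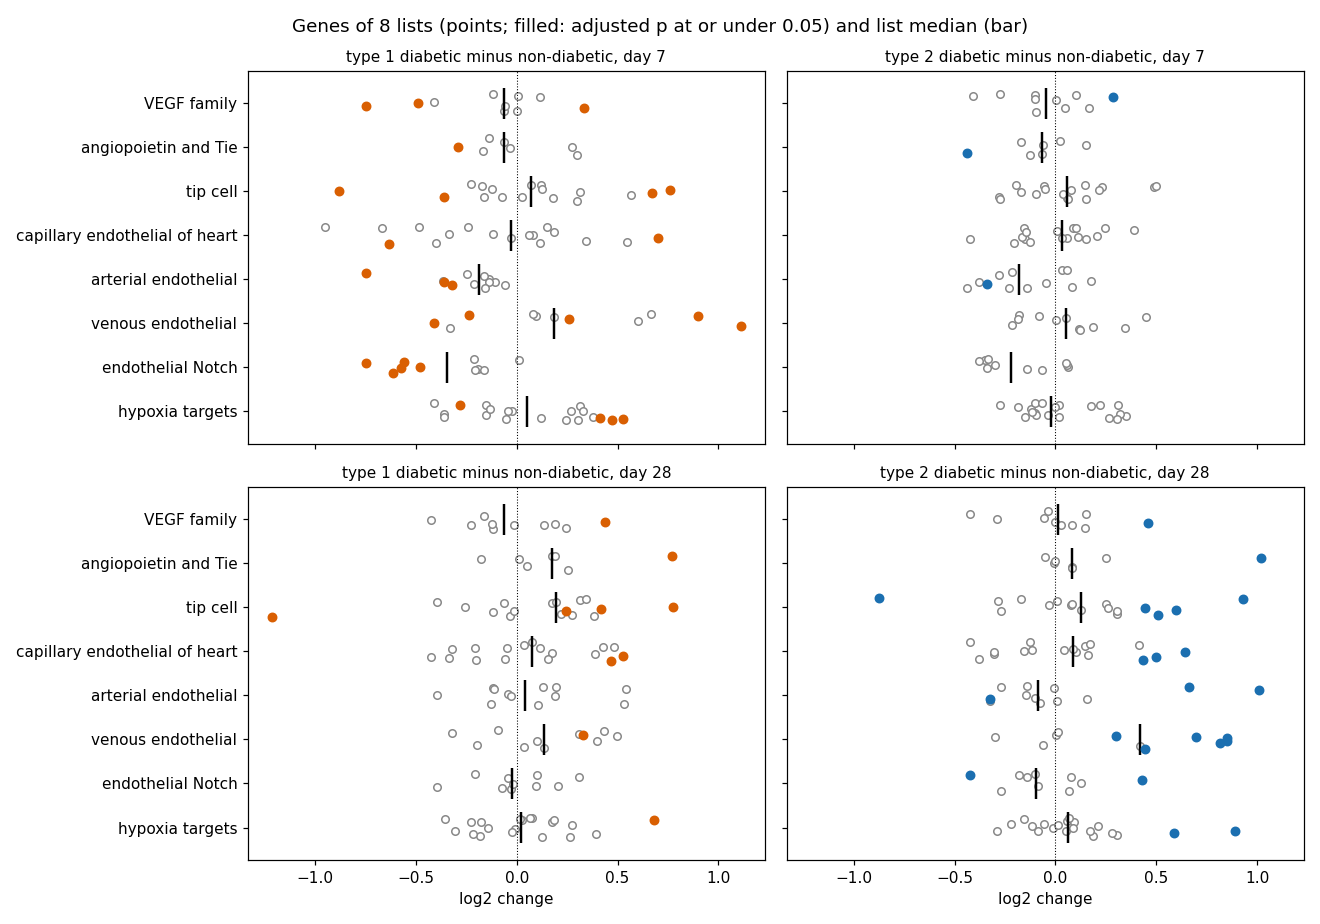
Log2 change (horizontal axis) of each tested gene (points; filled where called in edgeR) in 8 gene lists, with the list median (bar), in the 4 comparisons of a diabetic with the non-diabetic group. Notch genes lie to the left in type 1 diabetic infarcts at day 7 (5 of 10 called lower, against 11.4% of all genes). Venous genes lie to the right in type 2 diabetic infarcts at day 28 (6 of 11 called higher, against 7.21% of all genes).

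Esm1 was the 1 tip cell gene called lower at day 28. A list of 17 tip cell genes, among them Esm1, Apln and Angpt2, had 3 called higher and 1 lower in type 1 diabetic infarcts at day 28 (median 0.20 against 0.00 over all genes). In type 2 diabetic infarcts 4 were higher and 1 lower (median 0.12). Of all genes tested, 2.6% were called higher and 1.41% lower in type 1, and 7.21% higher and 3.5% lower in type 2. The lower gene was Esm1 in both comparisons, which share the non-diabetic libraries. Plaur, the urokinase receptor, rose by 0.77 in type 1 (SE 0.161, adjusted p = 0.00545) and by 0.93 in type 2 diabetic infarcts (SE 0.161, adjusted p = 0.000234). Nid2, a basement membrane protein, rose by 0.42 (SE 0.118, adjusted p = 0.0417) and by 0.45 (SE 0.118, adjusted p = 0.0129), and the chemokine receptor Cxcr4 by 0.60 in type 2 (SE 0.159, adjusted p = 0.0134). At day 7, 2 tip cell genes were higher and 2 lower in type 1 diabetic infarcts, which is near the 22.5% of all genes called, with Ramp3, a coreceptor of adrenomedullin, lower by 0.88 (log2 change -0.88, SE 0.199, adjusted p = 0.00312), and 0 of 17 were called in type 2, against 7.35% of all genes.

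Among the venous, arterial and heart capillary lists, venous genes had the most calls in type 2 diabetic infarcts at day 28. At day 28 in type 2 diabetic infarcts, 6 of 11 venous genes were higher and 0 lower (median 0.42), while 2 of 12 arterial genes were higher and 1 lower (median -0.09), against 7.21% of all genes called higher and 3.5% lower. Ephb4, a receptor of venous endothelium, rose by 0.30 (SE 0.0551, adjusted p = 0.000433) with no overlap between the groups, which held for 0.429% of genes. Vcam1, a leukocyte adhesion molecule, rose by 0.85 (SE 0.156, adjusted p = 0.000446) and von Willebrand factor (Vwf) by 0.85 (SE 0.224, adjusted p = 0.0121). In type 1 diabetic infarcts at day 28, 1 of 11 venous genes was called, Ephb4, which rose by 0.33 (SE 0.0551, adjusted p = 0.000873), and 0 of 12 arterial genes. Of 17 genes of heart capillaries, Kdr among them, 2 were higher in type 1 (2.6% of all genes) and 3 in type 2 diabetic infarcts (7.21%) and 0 lower in either, with Gpihbp1, which holds lipoprotein lipase on capillaries, raised by 0.53 (SE 0.143, adjusted p = 0.0315) and 0.44 (SE 0.143, adjusted p = 0.0464).

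At day 7 in type 1 diabetic infarcts, 5 of 10 Notch genes were lower and 0 higher (median -0.35 against -0.01 over all genes), where 11.4% of all genes were called lower. In type 2, where 7.35% of all genes were called in either direction, 0 of 10 Notch genes were called (median -0.22). The type 1 and type 2 groups of day 7 had 0 of 10 Notch genes called between them in edgeR, so a difference between the types was not shown. The Notch target Hey1 fell by 0.75 (SE 0.144, adjusted p = 0.000944), Hes1 by 0.56 (SE 0.130, adjusted p = 0.00364) and the ligand Jag2 by 0.61 (SE 0.143, adjusted p = 0.00378). These genes are also expressed outside vessels, and 7 of 10 fibroblast markers were called lower in the same comparison. The part of other cell types in the Notch changes was not tested. The type 1 effect on Hey1 was higher at day 28 than at day 7 by 0.69 (SE 0.205, adjusted p = 0.0182).

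Of 20 targets of hypoxia, Vegfa among them, 3 were higher and 1 lower in type 1 diabetic infarcts at day 7 (22.5% of all genes called) and 0 were called in type 2 (7.35%). At day 28, 1 was higher in type 1 (2.6% of all genes) and 2 in type 2 (7.21%). Hilpda, a lipid droplet protein, rose by 0.53 in type 1 diabetic infarcts at day 7 (SE 0.131, adjusted p = 0.00608), and the stress gene Ddit4 rose at day 28 by 0.68 in type 1 (SE 0.188, adjusted p = 0.0346) and 0.89 in type 2 (SE 0.188, adjusted p = 0.00204). Of 12 anti-angiogenic factors, 4 were higher and 0 lower in each diabetic group at day 28, with medians of 0.34 and 0.31. Of all genes, 2.6% were called higher in type 1 and 7.21% in type 2 on that day. At day 7, 3 were higher and 2 lower in type 1 (median -0.17), and 1 was higher and 1 lower in type 2 (median -0.01). The shares of all genes called in either direction at day 7 were 22.5% in type 1 and 7.35% in type 2. The chemokine Cxcl10 rose at day 7 by 0.77 in type 1 (SE 0.212, adjusted p = 0.0113) and by 1.00 in type 2 (SE 0.213, adjusted p = 0.0051), and in type 1 Sema3e rose by 1.11 (SE 0.279, adjusted p = 0.00649) and Adamts1 by 0.48 (SE 0.153, adjusted p = 0.0259). Thrombospondin 2 (Thbs2) fell at day 7 by 0.97 in type 1 (SE 0.197, adjusted p = 0.00147) and by 0.79 in type 2 diabetic infarcts (SE 0.196, adjusted p = 0.0153), and at day 28 it rose by 0.60 in type 1 (SE 0.156, adjusted p = 0.0244).

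The genes most like a member were sought among 11900 protein-coding genes by the smaller of the Pearson r over the 24 libraries of day 7 and the 31 libraries of day 28. The points share group and tissue makeup, so r is a description. Vegfa was most like Pptc7 (0.92 and 0.94), Klhl31 (0.91 and 0.92) and Chchd3 (0.93 and 0.91). Kdr was most like Rasgrp3 (0.88 and 0.87), Taco1 (0.85 and 0.86) and Cep68 (0.85 and 0.87). Pecam1 was most like Ctla2a (0.71 and 0.78), Prkch (0.72 and 0.70) and B3gnt3 (0.75 and 0.69), Angpt2 most like Ptx3 (0.74 and 0.78), Birc3 (0.72 and 0.77) and Bid (0.71 and 0.80), and Apln most like Rgs16 (0.72 and 0.69), S1pr3 (0.70 and 0.66) and Ncapd2 (0.65 and 0.62). Esm1 had the lowest values, with Gmppb (0.69 and 0.55), Gmcl1 (0.58 and 0.53) and Zcchc17 (0.51 and 0.54).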

How the data were processed

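Per the labels' protocols, the PureLink RNA Mini Kit and a TruSeq stranded mRNA kit were used. The authors deposited read counts per gene in 1 table for each day (56941 and 57186 Ensembl genes). The submitters' processing notes name mm39 and DESeq2. Which aligner, counter, strand setting and annotation made the counts is not given in the sources used here. Of counts from 1 to 49, 76.4% at day 7 and 75.2% at day 28 were even, so a read pair may have been counted as 2, and counts are then not independent fragments. No column of per-sample values was left unused. No 2 libraries of a group agreed within counting noise (lowest chi-square per gene 17.6).

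Groups were taken from the sample titles. Genes were kept by edgeR's filterByExpr (minimum count 10, minimum total 15), scaled by TMM and tested with edgeR 4.0.16 (glmQLFit, glmQLFTest; R 4.3.3), the 3 groups of a day fitted together, and all 6 groups together for the difference between days. P-values were adjusted by Benjamini-Hochberg over all genes tested, with calls at or under 0.05. SEs are the log2 change over the square root of F. Log2 CPM used a prior count of 2. On simulated data for type 1 against non-diabetic infarcts, 73.5% of genes changed by 1 log2 unit were recovered at day 7 (17942 genes) and 80.4% at day 28 (18660 genes), and 95.9% and 97.0% of those changed by 2.

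The members and gene lists were chosen with earlier results of these data known. Besides the 10 members, up to 3 called genes with the smallest p per list, direction and comparison could be named, and for 6 members the 3 non-member protein-coding genes of highest likeness, averaging 1 or more in log2 CPM on both days. The alternatives tried were RLE scaling, DESeq2 1.42.0, limma-voom (limma 3.58.1, quality weights on), a fit of the 2 groups compared alone, no low-count filter, a replicate block, a cardiomyocyte or endothelial marker covariate, libraries of the same first number summed, and each library left out. Leaving out both day 7 libraries that stood apart was added after seeing the data. For the difference between days, the fit of 2 groups, the marker covariates and the first-number sums were not run. Tables and figures were made with Python 3.11.15, pandas 2.3.3 and matplotlib 3.10.9.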

Additional observations from a re-analysis of the deposited data

Results flagged for a closer look

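At day 7, 3 values lay far from the rest of their group. Kdr in type 1 diabetic replicate 4 was 61.5 CPM, against 95.2 CPM for the next lowest library. Vegfa in non-diabetic replicate 5 was 51.2 CPM, against 95.8 CPM for the next lowest, and Aplnr in the same library was 13.04 CPM, against 77.1 CPM. A gap at the cutoff used appears by chance in about 5% of groups. As 50 sets of 1 member in 1 group were searched, some such gaps are expected by chance. In the order given, the gaps were 0.61, 0.54 and 0.71 of the group's log2 range. Vegfa and Aplnr came from the same library, so the sets are not independent, and the number expected by chance was not tested.

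By edgeR's test of the difference itself, the effect of diabetes was called different between the days for Esm1 in both types and for Apln in type 1. Each of these calls was lost in some fits that left out 1 library, and first-number sums were not run for them. The log2 difference (day 28 minus day 7) was -1.01 for Esm1 in type 1 (adjusted p = 0.0437), -1.40 for Esm1 in type 2 (adjusted p = 0.0248) and -0.94 for Apln in type 1 (adjusted p = 0.0273). Day and sequencing project cannot be told apart in these differences.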

How the results depend on the processing

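There were 670 values under the alternatives other than single libraries left out. Of these, 637 kept their side of the threshold and were not counted as turned, 10 lost a call, 12 gained one and 11 turned. A value called in neither fit was counted as turned only where its sign changed and it moved by more than its SE. The 637 may thus hold smaller changes of sign. With the cardiomyocyte covariate, type 1 against non-diabetic infarcts at day 7 turned for Kdr (0.17), Vegfa (0.072), Aplnr (0.24) and Tek (0.049), type 1 against type 2 turned for Vegfa (0.067), and type 2 at day 28 turned for Flt1 (0.12). With the endothelial covariate, type 1 at day 28 turned for Cdh5 (-0.060) and Tek (-0.083), and type 2 at day 28 for Cdh5 (-0.10). With limma-voom, Angpt2 turned between the diabetic groups at day 28 (0.13) and in the type 2 difference between days (-0.17), and between the diabetic groups at day 28 it ranged from -0.15 to 0.10 with single libraries left out, turning without type 2 replicate 4 (0.10). The causes were not tested.

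Members called for type 1 at day 7 were 3 with limma-voom (5901 genes called in all), 2 with the endothelial covariate (4255), 2 without both libraries that stood apart (5380) and 0 with first-number sums. For type 2 at day 7 limma-voom called 1 (1941 genes), and between the diabetic groups at day 7 DESeq2, the fit of only 2 groups and the endothelial covariate called 1 each. For type 1 at day 28 limma-voom called 4, first-number sums 0 and the replicate block 1. For type 2 at day 28 the endothelial covariate called 1 and first-number sums 0, and for the type 1 difference between days 1 was called with no low-count filter (2119 genes).

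Genes called with DESeq2 were 1058 (type 1 against type 2, day 7), 1219 (type 1, day 28), 1039 (type 1 against type 2, day 28) and 638 (type 2 difference between days). Limma-voom called 2927 (type 1 against type 2, day 7), 3025 (type 1, day 28) and 3907 (type 1 difference). With no filter the counts were 823 (type 2, day 7), 289 (type 1 against type 2, day 7), 440 (type 1, day 28), 403 (type 1 against type 2, day 28) and 158 (type 2 difference). The fit of 2 groups called 983 and the fit without both libraries that stood apart 1161 (type 1 against type 2, day 7). The cardiomyocyte covariate gave 1578 (type 1, day 28) and 1222 (type 1 against type 2, day 28), and the endothelial covariate 2090 (type 2, day 7), 1203 (type 1 against type 2, day 7), 133 (type 1, day 28) and 948 (type 2, day 28). First-number sums gave 1459, 176 and 0 at day 7 and 6, 427 and 125 at day 28 (type 1, type 2, type 1 against type 2).

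With single libraries left out, 1807 of 1840 values kept their side of the threshold and were not counted as turned. Members called ranged from 1 to 3 (type 1, day 7), 1 to 2 (type 1, day 28), 3 to 4 (type 2, day 28), 0 to 2 (type 1 difference) and 0 to 1 (type 2 difference), and were 0 in the other comparisons. Genes called ranged from 3201 to 5345, 738 to 1975 and 157 to 980 at day 7, from 443 to 954, 1588 to 2447 and 372 to 698 at day 28 (same order), and from 2034 to 3073 and 138 to 655 for the differences between days.

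Replicate numbers did not pair the libraries: correlations of same-numbered libraries ran from -0.47 to 0.47, and at most 2 libraries of a comparison correlated best with their own number. The replicate block called 333 genes (type 1, day 28), 375 (type 1 against type 2, day 28) and 191 (type 2 difference), and gave Esm1 changes of -1.30 and -0.96 at day 28. The lowest member count was 64, for Esm1 in non-diabetic replicate 4 of day 7, the library with the lowest total (10.8 M).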

Other observations

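Some members had a smaller SD among libraries whose names begin with the same number than across their whole group, but the SDs cover different libraries. Esm1 had a SD within group of 0.53 log2 CPM at day 7 and 0.54 at day 28, and a SD within first number of 0.33 (14 libraries sharing 6 numbers) and 0.34 (26 libraries sharing 8). For Apln these were 0.40 and 0.51 within group and 0.17 and 0.37 within first number. Kdr at day 28 had 0.39 within group and 0.41 within first number. The SD within group covers all 24 libraries of day 7 and all 31 of day 28, and the SD within first number only those sharing a number. At day 7, non-diabetic replicate 5 and type 1 diabetic replicate 4 share no number and enter only the SD within group. Their part in the smaller SD was not tested. What the first number stands for is not given in the labels.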
